A study of Mus musculus with 12 samples.

Results

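In murine bone marrow-derived macrophages (BMMs), 10 genes of antigen presentation on major histocompatibility complex (MHC) class I were followed through 12 RNA-Seq libraries. They are the heavy chains H2-K1 and H2-D1, the light chain B2m, the peptide transporter subunits Tap1 and Tap2 with tapasin (Tapbp), the transactivator Nlrc5, and the immunoproteasome subunits Psmb8, Psmb9 and Psmb10. They were taken as a named list of 10 among the 38887 genes of the deposited tables, and all 10 were among the 12846 genes that passed the filter on low counts.

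BMMs were obtained from mice aged 3 to 4 months by culture with M-CSF for 6 days, and were left untreated (M0) or received IL-4 at 20 ng/ml for 8 h (M2). Each of the 4 groups, WT M0, KO M0, WT M2 and KO M2, held 3 mice, and each mouse gave an M0 and an M2 library. KO mice carried floxed Igf2bp2 alleles (exons 4 and 5) with Cre driven from the Lyz2 locus, so that deletion was aimed at myeloid cells. WT mice were littermates without floxed alleles, of which some had Cre and some did not. Igf2bp2 encodes an RNA-binding protein. The libraries held between 20011792 and 39632770 counts, with the smallest median in WT M2 (20192911) and the largest in KO M2 (37866974).

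Counts of the whole Igf2bp2 gene include the exons outside the deletion and are therefore no check of it. They were 118, 99.7 and 76.5 CPM (counts relative to the normalised library total) in WT M0, and 95.9, 84.9 and 91.6 CPM in KO M0. In WT M2 they were 221, 233 and 178 CPM, and in KO M2 146, 129 and 129 CPM. Lyz2, the locus that carries Cre, separated the genotypes in each library, with at least 4185 CPM in WT and at most 33.2 CPM in KO. Every comparison of KO with WT was thus also one of low with high Lyz2 RNA. The part of Lyz2 and of Cre in the genotype differences was not tested. The macrophage markers Adgre1, Csf1r, Cd68, Itgam, Fcgr1 and Mertk were all expressed and summed to between 4327 and 5625 CPM. Of the T cell markers, Cd3d, Cd3e and Cd8a were at 0 in every library, and B cell markers summed to at most 0.106 CPM. Dendritic cell markers summed to between 0.194 and 0.551 CPM in M0 and between 1.5 and 2.11 CPM in M2, where Zbtb46, the one fitted, was called higher with IL-4 (log2 fold change 2.54 in WT and 2.45 in KO). T and NK cell markers summed to at most 0.662 CPM, and Cd4, the one fitted, was called lower with IL-4 in WT (-1.38). Stromal markers (Col1a1, Col1a2, Col3a1, Pdgfrb, Cdh5) summed to between 31.9 and 60.8 CPM in WT and between 9.38 and 32.3 CPM in KO, and neutrophil markers (S100a8, S100a9, Elane, with Ly6g at 0 in every library) to between 4.01 and 8.87 CPM in WT M0 against 2.98 to 3.04 CPM in KO M0, and to between 2.61 and 5.82 CPM in WT M2 against 2.49 to 3.18 CPM in KO M2. Of the 2 neutrophil markers fitted, S100a9 was called lower in KO M0 (log2 fold change -1.38, edgeR adjusted p = 0.0124). With IL-4, 1 neutrophil marker was called lower in WT, and 1 stromal marker in each genotype. Of the 6 macrophage markers, 4 rose and 1 fell with IL-4 in WT, against 24.9% and 25.1% of all genes. In KO 2 rose and 1 fell, against 26.8% and 26.0%, and 1 was called higher in KO M0, against 5.50%. The part of these markers in the comparisons was not tested.

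MHC class I molecules display peptides from the inside of the cell to CD8 T cells. Proteasomes cut the proteins, and in the immunoproteasome Psmb8, Psmb9 and Psmb10 take the places of the constitutive catalytic subunits Psmb5, Psmb6 and Psmb7. The peptides are carried into the endoplasmic reticulum by the dimer of Tap1 and Tap2, loaded with the help of tapasin onto a heavy chain paired with beta-2-microglobulin, and brought to the surface, while Nlrc5 acts in the nucleus as a transactivator of these genes and interferons raise most of them.

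Of the members, 7 lie on chromosome 17 of GRCm38, within 1.35 Mb of the MHC between Tapbp (chr17:33915899-33929292) and H2-D1 (chr17:35262730-35267499). H2-K1 (chr17:33996017-34000347, minus strand) lies near the Tapbp end, and Psmb9 (chr17:34181987-34187764, minus strand), Tap1 (chr17:34187553-34197225), Psmb8 (chr17:34197721-34201454) and Tap2 (chr17:34203527-34216321) follow each other directly. B2m lies on chromosome 2 (chr2:122147686-122153083), and Nlrc5 (chr8:94434356-94527272) and Psmb10 (chr8:105935735-105938444, minus strand) on chromosome 8. Psmb9 and Tap1 are read in opposite directions, and in RefSeq their start sites are 226 bases apart, so that 275 of the 300 bases of their promoter windows are the same DNA.

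Promoter windows from RefSeq on GRCm38.p6, each with 250 bases before and 50 bases after the start site, were found for 8 of the 10 members, without an entry for Nlrc5 and Tap2. They are shown where they hold elements named in class I regulation, because Nlrc5 acts through the X and Y boxes of these promoters. From the X2 box (TGACG) to the Y box (CCAAT, here on the other strand as ATTGG), both in capitals, the promoters of the heavy chains and of the light chain read as follows.
H2-K1, chr17:34000359-34000388, minus strand: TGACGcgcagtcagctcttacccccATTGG
H2-D1, chr17:35262993-35263022, plus strand: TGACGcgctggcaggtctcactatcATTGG
B2m, chr2:122147609-122147638, plus strand: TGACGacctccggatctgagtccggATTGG

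The 2 boxes began 25 bases apart in all 3 genes. H2-K1 and H2-D1 were identical at 23 of these 30 bases, whereas B2m shared 13 with H2-K1 and 12 with H2-D1, 10 of which are the boxes themselves. Over all 32851 promoter windows, 20.8% held an X2 box and 37.4% a Y box on either strand, but 31 windows (0.0944%), of 27 genes, held the pair at this spacing and orientation. The spacing was looked up after the 3 promoters had been seen. Among the 27 genes was a further class I heavy chain, H2-M3. The stretch of H2-D1 lies inside the gene span given above, which comes from GENCODE and starts further upstream than the RefSeq entry.

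Longer stretches of the H2-K1 and B2m promoters are shown because they also hold the elements of the inflammatory and interferon response, with each match in capitals. In H2-K1 these are the kappa-B element, the X2 box and the Y box, and in B2m the core of an interferon-stimulated response element (GAAA repeated after a gap of 2 bases), then kappa-B, X2 box and Y box.
H2-K1, chr17:34000354-34000463, minus strand: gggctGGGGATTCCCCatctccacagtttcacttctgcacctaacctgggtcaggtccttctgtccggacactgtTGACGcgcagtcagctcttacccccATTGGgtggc
B2m, chr2:122147543-122147643, plus strand: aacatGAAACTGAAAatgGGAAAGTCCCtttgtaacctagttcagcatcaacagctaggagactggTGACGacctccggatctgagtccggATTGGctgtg

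The interferon element core began at -139 in B2m and was found in 3.44% of all windows, and the kappa-B consensus, searched on both strands, in 8.46%. H2-D1 held the kappa-B consensus as well, and its window was identical to that of H2-K1 at 73.3% of the aligned bases. Psmb10, the member with the largest response to IL-4, is shown for a site with TTC and GAA separated by 4 bases, the spacing that STAT6, the transcription factor activated by IL-4, binds.
Psmb10, chr8:105938425-105938484, minus strand: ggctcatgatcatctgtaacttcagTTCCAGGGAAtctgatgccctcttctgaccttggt

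The site began at -67 from the RefSeq start, and 6.95% of all windows held such a site. Of the 60 bases shown, 20 lie in annotated untranslated or coding sequence of GENCODE M21, because its gene starts differ from those of RefSeq. Psmb8 held the related site with 3 bases between TTC and GAA, found in 8.3% of windows, at -97. These matches describe letters in the sequence, and binding was not measured.

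Within the cells the members spanned a wide range of levels, compared here as TPM, transcript abundance relative to the library total after correction for transcript length. B2m was highest, with 2665 ± 73.5 TPM in WT M0 (SD, n = 3), and ranked 28 of the 12846 genes by its mean over the 12 libraries. H2-D1 (1504 ± 1.87 TPM) and H2-K1 (944 ± 17.3 TPM) followed. Then came Psmb8 (216 ± 12.5 TPM), Tapbp (148 ± 1.26 TPM), Psmb10 (72.9 ± 1.99 TPM), Psmb9 (56.9 ± 6.68 TPM), Tap1 (43.9 ± 3.04 TPM), Tap2 (42.4 ± 1.21 TPM) and Nlrc5 (15.5 ± 0.802 TPM). In WT M0 only the neighbours Tap1 and Tap2 overlapped in their ranges. The order was the same in KO M0 except that Tap2 stood above Tap1, with overlapping ranges, and Psmb9 overlapped Tap2. In M2 Psmb10 had moved up to the level of Tapbp, with 145 ± 5.55 against 159 ± 13.1 TPM in WT and 169 ± 10.0 against 169 ± 13.5 TPM in KO, and their ranges overlapped in each genotype.

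**Figure D1:**
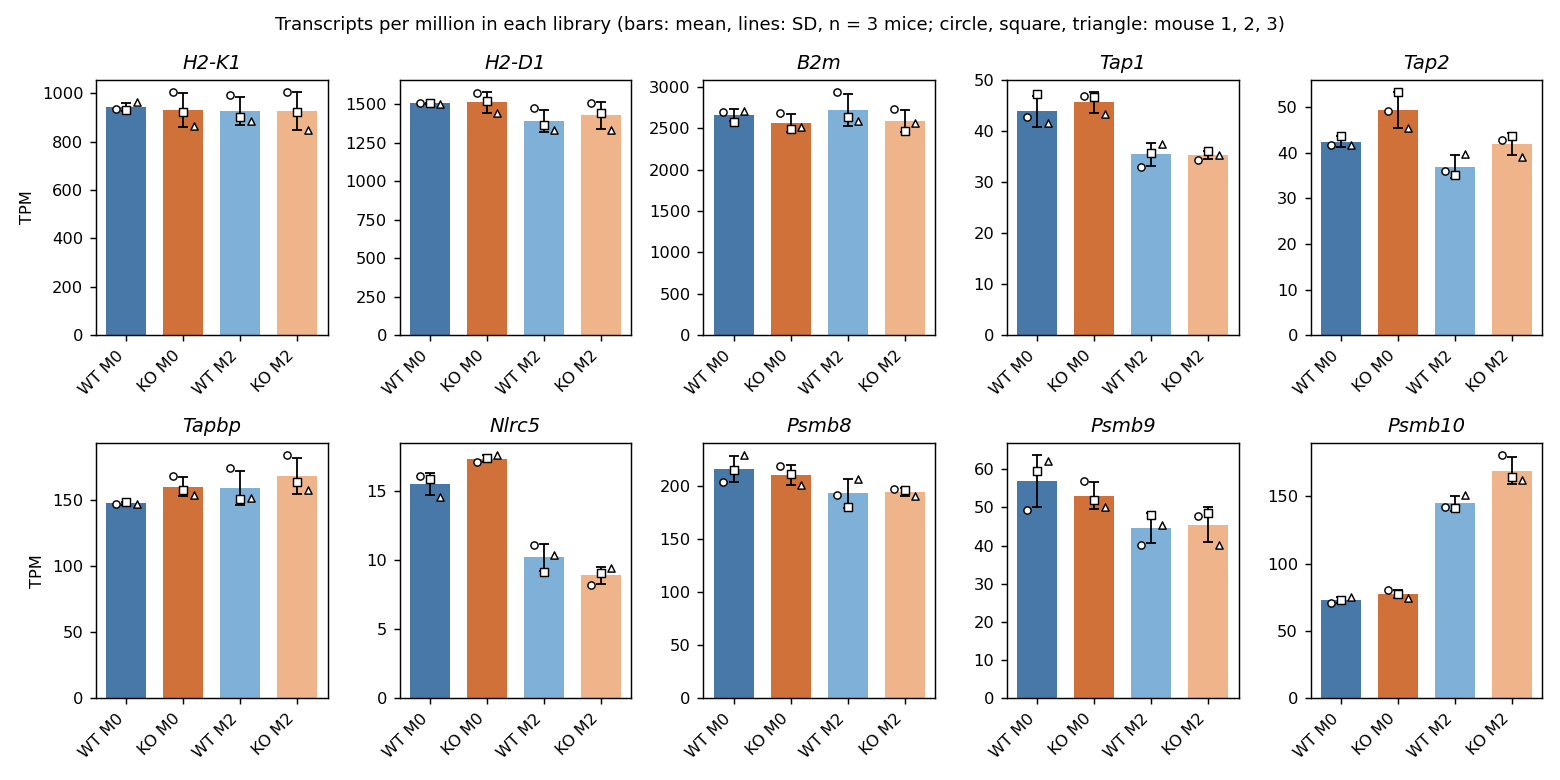
TPM of the 10 members in each library, with bars for the mean of a group, lines for the SD (n = 3 mice) and a symbol for each mouse; every axis starts at 0. Psmb10 stands between 70.9 and 80.3 TPM in M0 and between 141 and 180.3 TPM in M2, Nlrc5 stands lower in M2 in each genotype, and the bars of H2-K1, H2-D1 and B2m are nearly level.

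The surface chains were compared first. H2-K1 had 755, 761 and 831 CPM in WT M0 and 827, 768 and 723 CPM in KO M0. In WT M2 it had 859, 784 and 766 CPM, and in KO M2 914, 791 and 738 CPM. The groups compared overlapped, and no comparison was called in the test used throughout, the quasi-likelihood test of edgeR with Benjamini-Hochberg adjustment over all 12846 genes and a call at an adjusted p under 0.05. KO and WT differed in H2-K1 by a log2 fold change of -0.02 (95% interval -0.19 to 0.15) in M0 and 0.02 (-0.15 to 0.19) in M2.

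H2-D1, the second classical heavy chain, had 1458, 1469.7 and 1562 CPM in WT M0 and 1566, 1540.3 and 1453 CPM in KO M0. In WT M2 its values were 1518, 1417 and 1375 CPM, and in KO M2 1670.5, 1502 and 1400.0 CPM. These ranges also overlapped, with a log2 fold change of 0.02 (95% interval -0.12 to 0.16) between KO and WT in M0 and of 0.08 (-0.05 to 0.22) in M2. B2m, the shared light chain, had between 1084 and 1222 CPM in M0 and between 1106 and 1319 CPM in M2, and differed between KO and WT by -0.04 (-0.19 to 0.10) in M0 and -0.04 (-0.19 to 0.11) in M2 on the log2 scale. IL-4 was not followed by a called change in any of these 3 genes either. Their responses lay between -0.06 for H2-D1 and 0.09 for B2m in WT, and between 0.00 for H2-D1 and 0.10 for B2m in KO, with intervals that reached no further than -0.20 and 0.25. Fewer cells of a type and less RNA per cell cannot be told apart in such bulk samples.

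Reads that match several related heavy chains are divided among them by estimation. The posterior SD of the count that came with the files was at most 0.08% for H2-K1 and 0.06% for H2-D1, and 0 for B2m. The TPM ratio of H2-K1 to B2m was 0.354 ± 0.00677 in WT and 0.363 ± 0.0166 in KO under M0 conditions, and 0.341 ± 0.00276 in WT and 0.358 ± 0.0233 in KO with IL-4 (SD, n = 3). That of H2-D1 to B2m was 0.565 ± 0.016, 0.589 ± 0.0197, 0.511 ± 0.00949 and 0.552 ± 0.0338 in the same order. With IL-4 the 3 WT values of each ratio lay below the 3 untreated ones (exact two-sided permutation p = 0.1 for each, the smallest that 3 against 3 libraries can give), and with KO cells the ranges overlapped (exact p = 0.7 and 0.3). Within a mouse, the ratio of H2-D1 to B2m was lower with IL-4 in 3 of 3 WT and 3 of 3 KO mice, and that of H2-K1 to B2m in 3 of 3 WT and 2 of 3 KO mice, and the difference between the genotypes in these responses was not tested. In the genotype comparisons both ratios overlapped.

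The genes of peptide transport and loading followed. Tap1, which forms the transporter with Tap2, had 56.0, 58.3 and 60.6 CPM in WT M0 and 48.9, 52.4 and 50.5 CPM in WT M2. In KO it had 67.6, 64.8 and 60.1 CPM in M0 and 54.5, 52.9 and 48 CPM in M2. All M2 libraries thus lay below all M0 libraries of their genotype. Tap1 fell by 0.20 on the log2 scale with IL-4 in WT (SE 0.06, edgeR adjusted p = 0.0154) and by 0.31 in KO (SE 0.06, edgeR adjusted p = 0.000863), and the difference between these responses was -0.10 (95% interval -0.29 to 0.08, edgeR adjusted p = 0.574). The call in WT was lost when WT M2 replicate 1 was left out (-0.18, edgeR adjusted p = 0.0614).

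Tap2 had between 53.9 and 61.5 CPM in WT M0 and between 52.6 and 57.1 CPM in WT M2, and between 62.5 and 65.0 CPM in KO M0 and between 56.5 and 61.1 CPM in KO M2. Its response to IL-4 was -0.11 in WT (95% interval -0.23 to 0.02, edgeR adjusted p = 0.157) and -0.09 in KO (-0.22 to 0.03, edgeR adjusted p = 0.192). Without WT M0 replicate 1 the response of Tap2 in WT was -0.16 with an edgeR adjusted p of 0.0289, and limma on log2(TPM + 1) called it in WT (-0.19, adjusted p = 0.0418) and in KO (-0.23, adjusted p = 0.0187). The effective length of Tap2 that enters its TPM ranged from 2102 to 2448 bases in KO M0 and from 2393 to 2552 bases in WT M0.

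Tap1 and Tap2 stood in nearly equal amounts. Their TPM ratio was 1.03 ± 0.0424 in WT and 0.927 ± 0.0464 in KO without IL-4, and 0.958 ± 0.0533 in WT and 0.842 ± 0.0522 in KO with it (SD, n = 3). All KO values lay below all WT values in M0 and again in M2 (exact permutation p = 0.1 for each, the smallest possible). On counts, however, KO differed from WT in M0 by a log2 fold change of 0.14 for Tap1 (95% interval 0.01 to 0.27, edgeR adjusted p = 0.177) and 0.11 for Tap2 (-0.01 to 0.24, edgeR adjusted p = 0.244), so that in M0 the lower ratio was seen only after correction for length.

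Tapbp encodes tapasin, which holds the empty class I molecule at the transporter. It had 193, 191 and 203 CPM in WT M0 and 236, 223 and 206 CPM in WT M2, and 231, 217 and 209 CPM in KO M0 and 259.9, 227 and 225 CPM in KO M2. In WT it rose with IL-4 (log2 fold change 0.18, SE 0.07, edgeR adjusted p = 0.0422), and the response in KO was 0.12 (95% interval -0.03 to 0.26, edgeR adjusted p = 0.165). In M0 the KO libraries all lay above the WT libraries, without a call (0.16, SE 0.07, edgeR adjusted p = 0.158). The rise in WT stood at the limit. It was lost without WT M0 replicate 1 (0.17, adjusted p = 0.0899), WT M0 replicate 2 (0.17, adjusted p = 0.114), WT M2 replicate 1 (0.13, adjusted p = 0.164) or WT M2 replicate 2 (0.18, adjusted p = 0.0969), without a filter on low counts (0.17, adjusted p = 0.0618), with a filter at 1 CPM in at least 3 libraries (0.17, adjusted p = 0.0527), and with limma (0.11, adjusted p = 0.215).

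Of 8 further genes of peptide loading and trimming, none was called between the genotypes, against 9.78% of all genes in M0 and 2.68% in M2. With IL-4, 3 rose and none fell in WT, and 3 rose and 1 fell in KO, against 24.9% of all genes higher and 25.1% lower in WT and 26.8% and 26.0% in KO. The median log2 fold change of the 8 was 0.08 in WT and 0.11 in KO against -0.008 and 0.014 over all genes. Erap1, the aminopeptidase that trims peptides in the endoplasmic reticulum, rose from 88.0 ± 8.81 to 117 ± 3.82 CPM in WT (log2 fold change 0.41, edgeR adjusted p = 0.000522) and from 91.2 ± 3.89 to 118 ± 8.90 CPM in KO (0.38, edgeR adjusted p = 0.000788). The chaperones Calr and Canx rose by 0.27 and 0.22 in WT and by 0.16 and 0.13 in KO, and the KO calls of each were lost in 4 of the 6 fits that left out a library. With limma Calr in KO (0.07) and Canx in WT (0.14) and in KO (0.04) were not called. Lnpep, a peptidase of endosomes, was the gene that fell in KO (-0.48, edgeR adjusted p = 0.0496), a call that 5 of 6 such fits lost.

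The largest change among the members was in the immunoproteasome. Psmb10 had 45.3, 47.3 and 51.4 CPM in WT M0 and 97.4, 97.4 and 104 CPM in WT M2. In KO it had 52.6, 51.6 and 49.6 CPM in M0 and 131, 112 and 112 CPM in M2. The M2 libraries lay far above the M0 libraries in each genotype, and in M2 the KO libraries lay above the WT libraries. With IL-4 Psmb10 rose by 1.05 on the log2 scale in WT (SE 0.07, edgeR adjusted p = 6.61e-08) and by 1.21 in KO (SE 0.07, edgeR adjusted p = 1.51e-08), and these calls held in all 6 fits without a library of each genotype. The difference of the responses was 0.16 (95% interval -0.05 to 0.37, edgeR adjusted p = 0.438). In M2 the KO cells differed from WT by a log2 of 0.25 (SE 0.07) with an edgeR adjusted p of 0.0699, whereas DESeq2 called it (0.25, adjusted p = 0.0229), as did edgeR without a filter on low counts (0.26, adjusted p = 0.0479).

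The other immunoproteasome subunits were not called higher in any comparison. Psmb8 had 124, 133 and 148 CPM in WT M0 and 123, 115 and 129.6 CPM in WT M2, and between 133 and 139 CPM in KO M0 and between 128 and 143 CPM in KO M2. Its response to IL-4 was -0.14 in WT (95% interval -0.29 to 0.01, edgeR adjusted p = 0.12) and -0.04 in KO (-0.19 to 0.11, edgeR adjusted p = 0.66). With the mouse as a replicate block the response of Psmb8 in WT was called (-0.13, edgeR adjusted p = 0.0444), and likewise without WT M0 replicate 1 (-0.19, edgeR adjusted p = 0.0349) and with limma on log2(TPM + 1) (-0.17, adjusted p = 0.0319).

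Psmb9 had 22, 25.1 and 28.2 CPM in WT M0 and 17.6, 22.2 and 22.5 CPM in WT M2, with overlapping ranges. It fell by 0.27 on the log2 scale with IL-4 in WT (SE 0.11, edgeR adjusted p = 0.0483), and in KO the response was -0.12 (95% interval -0.35 to 0.10, edgeR adjusted p = 0.339). The call was lost without WT M0 replicate 2 (-0.27, adjusted p = 0.0979), WT M0 replicate 3 (-0.18, adjusted p = 0.168), WT M2 replicate 1 (-0.16, adjusted p = 0.215) or WT M2 replicate 2 (-0.32, adjusted p = 0.0517), and when only the 6 WT libraries were fitted (-0.28, adjusted p = 0.103). The difference between the responses of WT and KO was 0.15 (95% interval -0.17 to 0.47).

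Each immunoproteasome subunit was set against the constitutive subunit whose place it takes, as a ratio of TPM within a library. Psmb10 to Psmb7 was 0.254, 0.252 and 0.254 in WT M0 and 0.282, 0.271 and 0.252 in KO M0, and rose to 0.477, 0.475 and 0.543 in WT M2 and 0.592, 0.574 and 0.54 in KO M2. The log2 ratio was higher by 0.97 in WT and 1.08 in KO with IL-4, and the groups did not overlap (exact permutation p = 0.1 for each, the smallest possible for 3 against 3 libraries). With the libraries paired by mouse, 3 pairs cannot give an exact p under 0.25. Psmb9 to Psmb6 moved the other way, from 0.167 ± 0.0138 to 0.107 ± 0.0095 in WT and from 0.146 ± 0.0131 to 0.103 ± 0.0113 in KO (SD, n = 3), a log2 difference of -0.64 and -0.50 without overlap (exact permutation p = 0.1 for each). Psmb8 to Psmb5 was 0.695 ± 0.0287 in WT M0 and 0.615 ± 0.0341 in WT M2, again without overlap (exact permutation p = 0.1), and 0.617 ± 0.0182 in KO M0 and 0.584 ± 0.021 in KO M2, with overlap (exact permutation p = 0.2), although each KO mouse was lower with IL-4.

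Between the genotypes the ratio of Psmb8 to Psmb5 in M0 was the one of these that separated KO from WT, with 0.638, 0.611 and 0.603 against 0.666, 0.695 and 0.724, a log2 difference of -0.17 (exact permutation p = 0.1). On counts, Psmb8 itself was not lower in KO M0, with a log2 fold change of 0.02, and Psmb5 stood at 0.14 without a call (edgeR adjusted p = 0.142). The effective length of Psmb8 ranged from 1113 to 1127 bases in WT M0 and from 1148 to 1187 in KO M0. The other ratios overlapped between KO and WT in each treatment (exact permutation p between 0.2 and 0.7). The IL-4 comparisons of the ratios were added after the data were seen.

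**Figure D2:**
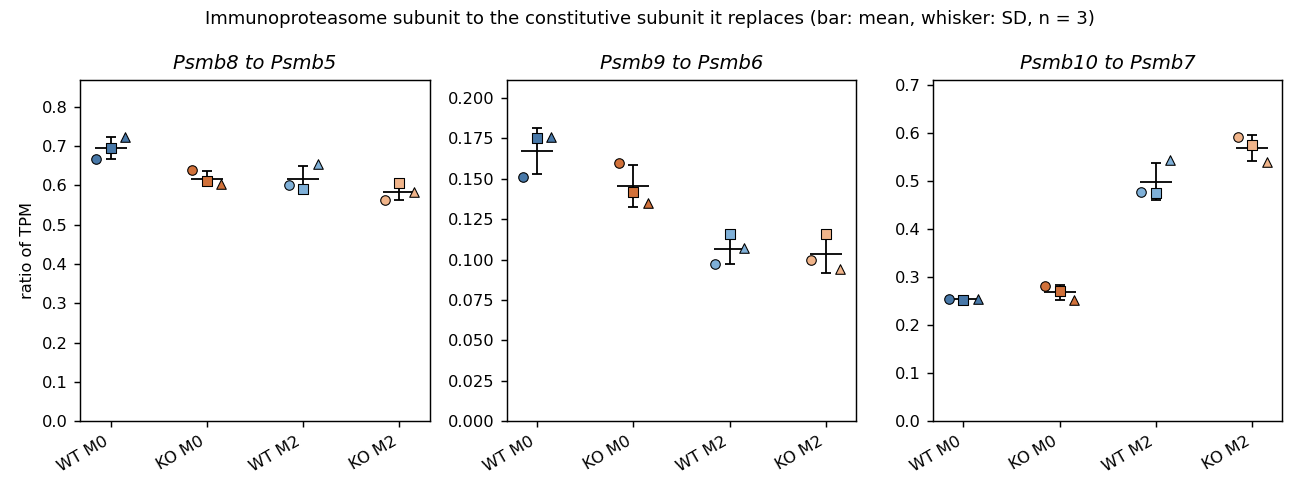
Ratio of the TPM of each immunoproteasome subunit to that of the constitutive subunit it replaces, per library, with the mean and SD of each group (n = 3) and axes from 0. Psmb10 to Psmb7 is between 0.252 and 0.282 in M0 and between 0.475 and 0.592 in M2, and Psmb9 to Psmb6 is lower in M2 than in M0.

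Of the constitutive subunits, Psmb6 rose with IL-4 by a log2 fold change of 0.36 in WT (edgeR adjusted p = 0.00118) and 0.36 in KO (edgeR adjusted p = 0.00102). Psmb5 and Psmb7 were not called in any comparison. The activator subunits Psme1 and Psme2 and the assembly factor Pomp, which matures new immunoproteasomes, were all called higher with IL-4 in both genotypes, against 24.9% of all genes in WT and 26.8% in KO. Pomp rose by 0.39 in WT (edgeR adjusted p = 0.000219) and 0.36 in KO (edgeR adjusted p = 0.000291), Psme2 by 0.28 and 0.21, and Psme1 by 0.15 and 0.15. Limma did not call Psme2 in KO (0.13, adjusted p = 0.0569) or Psme1 in either genotype (0.10 and 0.07), and without a library the calls of Psme1 were lost in 4 of 6 fits in WT and 2 of 6 in KO. None of these 6 genes was called between KO and WT, against 9.78% of all genes in M0 and 2.68% in M2.

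Nlrc5 showed the pattern that depended on the genotype. It had 33.3, 29.6 and 27.3 CPM in WT M0 and 37.0, 35.2 and 35.2 CPM in KO M0. In WT M2 it had 22.7, 20.7 and 22.3 CPM, and in KO M2 17.7, 18.6 and 19.2 CPM. The KO libraries were thus all above the WT libraries in M0 and all below them in M2. IL-4 lowered Nlrc5 in WT by 0.46 on the log2 scale (SE 0.07, edgeR adjusted p = 0.000183) and in KO by 0.95 (SE 0.07, edgeR adjusted p = 1.88e-07), and both falls were called in all fits that left out a library.

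The difference between the responses of Nlrc5 was itself called, at -0.49 (SE 0.10, 95% interval -0.71 to -0.27, edgeR adjusted p = 0.0227). It lost the call without WT M0 replicate 2 (-0.49, adjusted p = 0.0659), KO M0 replicate 1 (-0.47, adjusted p = 0.0641), KO M0 replicate 2 (-0.50, adjusted p = 0.0514), KO M0 replicate 3 (-0.50, adjusted p = 0.0544) or KO M2 replicate 2 (-0.49, adjusted p = 0.0502). With limma on log2(TPM + 1) it was -0.33 (adjusted p = 0.221). In TPM the effective length of Nlrc5 enters, which ranged from 3240 to 3849 bases in WT M0 and from 3545 to 3897 in WT M2, and from 3569 to 3916 in KO M0 and from 3500 to 3571 in KO M2.

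Within M0, Nlrc5 was higher in KO by 0.25 (SE 0.07, edgeR adjusted p = 0.04), and in M2 it was at -0.24 (SE 0.07, edgeR adjusted p = 0.102). The call in M0 was lost without WT M0 replicate 2 (0.25, adjusted p = 0.127), WT M0 replicate 3 (0.19, adjusted p = 0.0906), KO M0 replicate 1 (0.23, adjusted p = 0.124), KO M0 replicate 2 (0.26, adjusted p = 0.101) or KO M0 replicate 3 (0.26, adjusted p = 0.096). It was also lost with only the 6 libraries of M0 (0.24, adjusted p = 0.0881) and with limma (0.16, adjusted p = 0.298).

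Counted together, 1 of the 10 members was called between KO and WT in M0, Nlrc5, against 9.78% of all genes tested (5.50% higher, 4.27% lower). In M2 none was called with edgeR (2 had an unadjusted p under 0.05, Nlrc5 and Psmb10), against 2.68% of all genes (1.21% higher, 1.46% lower). Psmb10 was called in M2 with DESeq2 and with edgeR without a filter on low counts, for which no share of all genes is given here. The genotypes did not overlap for Tap2, Tapbp and Nlrc5 in M0, 3 of 10 against 31.1% of all genes, and for Nlrc5 and Psmb10 in M2, 2 of 10 against 24.8%. With IL-4 in WT, Psmb10 and Tapbp were called higher and Nlrc5, Tap1 and Psmb9 lower, 5 of 10 against 50.0% of all genes (24.9% higher, 25.1% lower). With IL-4 in KO, Psmb10 was called higher and Nlrc5 and Tap1 lower, 3 of 10 against 52.8% (26.8% higher, 26.0% lower). Untreated and IL-4 libraries did not overlap for Tap1, Tapbp, Nlrc5 and Psmb10 in WT, 4 of 10 against 55.2%, and for Tap1, Tap2, Nlrc5 and Psmb10 in KO, 4 of 10 against 63.4%. The difference between the responses was called for Nlrc5 alone, 1 of 10 against 3.24% (1.11% higher, 2.13% lower). The shares of members called were thus near the background or below it in all comparisons but that of the difference, where they rest on 1 gene. The median log2 fold change of the members was 0.06 in M0, 0.09 in M2, -0.08 with IL-4 in WT, -0.02 with IL-4 in KO, and 0.02 for the difference, against medians between -0.008 and 0.014 over all genes.

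**Figure D3:**
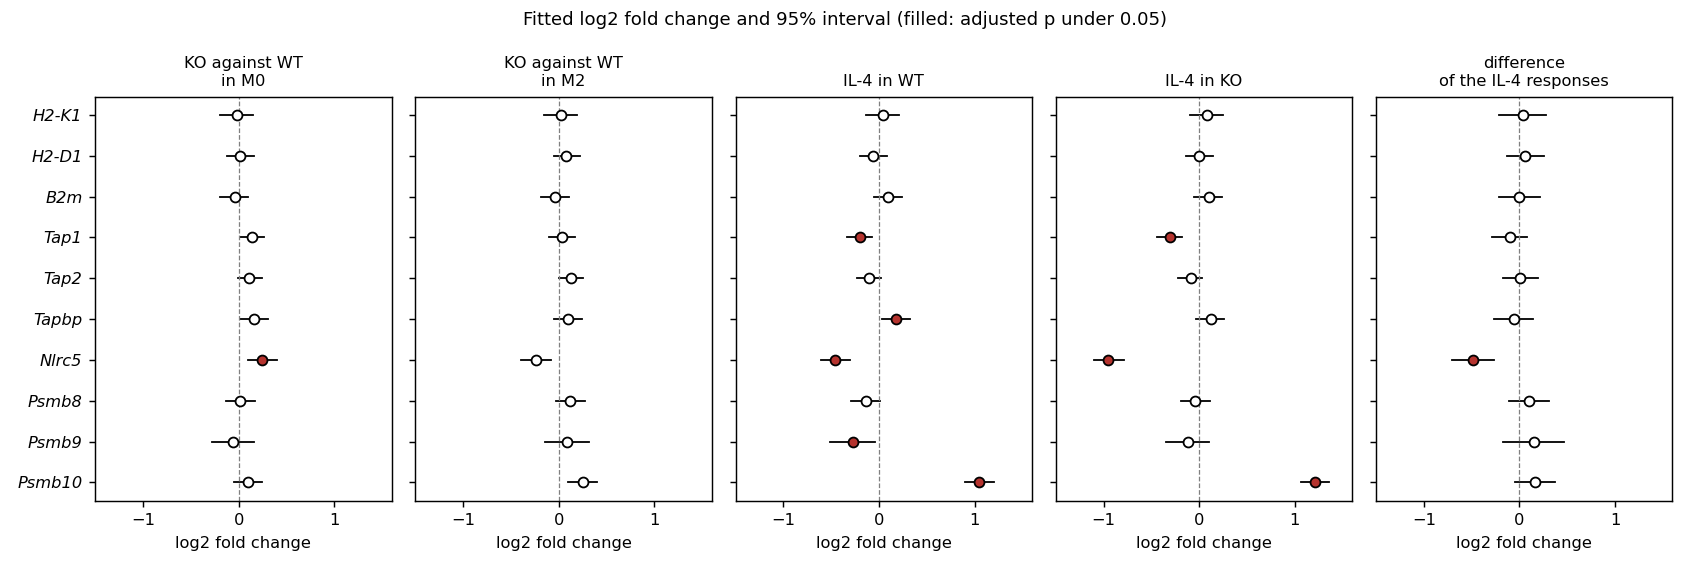
Log2 fold changes of the 10 members in the 5 comparisons with 95% intervals, where filled points were called at an edgeR adjusted p under 0.05. Psmb10 stands at 1.05 and 1.21 in the IL-4 comparisons, Nlrc5 at -0.46 and -0.95, and the intervals of H2-K1, H2-D1 and B2m include 0 in every comparison.

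The genes through which class I transcription and interferon signals run were followed as a list of 17. In M0, 3 of them were called higher in KO and 3 lower, against 5.50% and 4.27% of all genes, and in M2 none was called, against 2.68%, with medians of 0.01 and -0.07. Irf9 and Stat2, which carry the interferon signal to DNA, were among the higher ones. Irf9 had 41.8 ± 2.01 CPM in WT M0 and 50.5 ± 2.98 CPM in KO M0 (log2 fold change 0.27, edgeR adjusted p = 0.00951), and Stat2 had 48.4 ± 1.89 and 57.3 ± 3.59 CPM (0.24, edgeR adjusted p = 0.0124). The lower ones were the transcription factor Irf1 (-0.27, edgeR adjusted p = 0.0284) and the subunits of the interferon gamma receptor, Ifngr2 (-0.22, edgeR adjusted p = 0.0217) and Ifngr1 (-0.29, edgeR adjusted p = 0.0122). Ifngr1 was named after its values were seen, to complete the count. Without a library the calls were lost in 2 of 6 fits for Irf9, 1 for Stat2, 5 for Irf1 and 5 for Ifngr2, and limma called none of Irf9, Stat2 and Irf1.

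With IL-4, 6 of the 17 rose and 5 fell in WT, against 50.0% of all genes called, and 6 rose and 6 fell in KO, against 52.8%. Irf9 fell by 0.30 in WT and by 0.65 in KO. Stat2 rose by 0.21 in WT (edgeR adjusted p = 0.00412) and fell by 0.16 in KO (edgeR adjusted p = 0.016), where limma lost the call in WT and 2 of 6 fits without a library that in KO. The difference of the responses was called for Irf9 (-0.34, edgeR adjusted p = 0.0349), Stat2 (-0.38, edgeR adjusted p = 0.016) and Ifngr2 (0.38, edgeR adjusted p = 0.0194). Of the 17 genes, 1 was thus called higher and 2 lower, against 1.11% and 2.13% of all genes. Without a library the differences lost their call in 8 of 12 fits for Irf9, 1 for Stat2 and 4 for Ifngr2, and limma called none of them, with adjusted p of 0.148 for Irf9, 0.0962 for Stat2 and 0.0502 for Ifngr2. All these comparisons share the same M0 and M2 libraries with those of Nlrc5.

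The interferon-stimulated genes, 16 in the list, had positive log2 fold changes between KO and WT in M0 in 14 cases, with a median of 0.37, and 2 were called higher, Oasl2 and Gbp2, against 5.50% of all genes. In M2 the median was -0.15 and none was called, against 2.68%, and for the difference of the responses all 16 values were negative, with a median of -0.60 and 1 call, Oasl2, against 3.24% of all genes called. KO M0 replicate 1 stood apart, as the highest KO M0 library for all 16 genes. Ifit1, an interferon-induced RNA-binding protein, had 17.3, 7.64 and 9.07 CPM in KO M0 against 8.96, 8.15 and 9.23 CPM in WT M0, and Rsad2, the antiviral enzyme viperin, had 29.9, 12.6 and 15.4 against 23.3, 21.9 and 18.1 CPM. In M2 Rsad2 was high in WT M2 replicate 1, with 16.9, 9.07 and 5.83 CPM. Rsad2 was named, and the libraries to leave out chosen, after the values were seen. Without KO M0 replicate 1 the median was 0.15 in M0, with 12 of 16 positive, and -0.37 for the difference, with 15 of 16 negative. Without WT M2 replicate 1 it was -0.05 in M2 and -0.39 for the difference, with 16 of 16 negative.

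Oasl2 had 43.2 ± 3.33 CPM in WT M0 and 63.2 ± 7.93 CPM in KO M0 (0.55, edgeR adjusted p = 0.0104), and 31.9 ± 5.80 and 26.1 ± 0.897 CPM in M2 (-0.29, edgeR adjusted p = 0.199). The difference for Oasl2 was -0.84 (SE 0.16, edgeR adjusted p = 0.0173), lost in 2 of 12 fits without a library and with limma (-0.58, adjusted p = 0.159). Gbp2, an interferon-induced GTPase, was higher by 0.46 in KO M0 (edgeR adjusted p = 0.043), a call that 5 of 6 fits without a library lost. Limma called neither Oasl2 (0.43, adjusted p = 0.0725) nor Gbp2 (0.42, adjusted p = 0.0774) in M0.

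IL-4 lowered 11 of the 16 in WT and 12 in KO, against 25.1% and 26.0% of all genes, and raised 3 in each, with medians of -0.48 and -0.92. The chemokine Cxcl10 fell from 15.4 ± 1.13 to 3.07 ± 2.32 CPM in WT and from 8.05 ± 4.73 to 0.731 ± 0.316 CPM in KO, and Ifit3 fell from 7.96 ± 1.09 to 2.04 ± 0.963 CPM in WT and from 9.93 ± 4.07 to 1.1 ± 0.381 CPM in KO. Ifit1 fell by 1.34 on the log2 scale in WT and by 2.53 in KO.

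**Figure D4:**
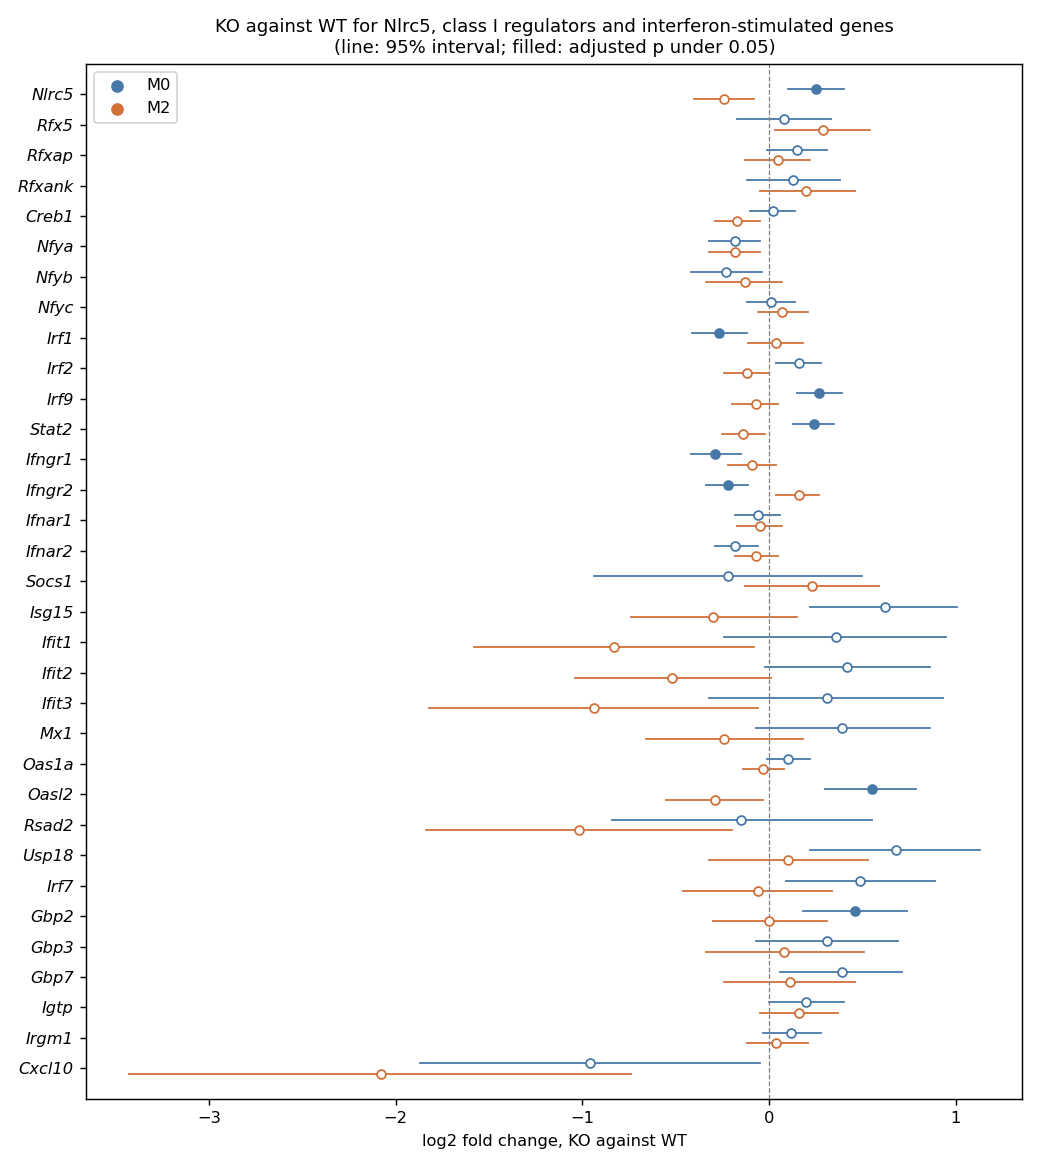
Log2 fold changes between KO and WT for Nlrc5, 16 of the 17 listed genes of class I transcription and interferon signalling and the 16 interferon-stimulated genes, in M0 and in M2, with 95% intervals; filled points have an edgeR adjusted p under 0.05. Nlrc5, Irf9 and Stat2 stand above 0 in M0 and below 0 in M2, and no point of M2 is filled.

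The relatives of H2-K1 and H2-D1, heavy chains of class Ib and class I-like molecules, were followed as a list. Of 9 such genes, 1 was called higher and 3 lower in KO M0, against 5.50% and 4.27% of all genes, and none in M2, against 2.68%, with medians of 0.02 and 0.03. H2-Q4 had 66.9 ± 4.20 CPM in WT M0 and 41.5 ± 2.12 CPM in KO M0 (log2 fold change -0.69, edgeR adjusted p = 0.000441), against 39.9 ± 3.77 and 41.3 ± 3.50 CPM in M2 (0.05, edgeR adjusted p = 0.789). IL-4 thus lowered H2-Q4 in WT (-0.75, edgeR adjusted p = 7.48e-06), and the difference of the responses was 0.74 (edgeR adjusted p = 0.00627), a call held in all 12 fits without a library. H2-T24 had 3.06 ± 0.457 CPM in WT M0 and 5.34 ± 0.559 CPM in KO M0 (0.80, edgeR adjusted p = 0.00588), and moved in opposite directions with IL-4, by 0.57 in WT and -0.54 in KO, with a difference of -1.11 (edgeR adjusted p = 0.0152). Limma on log2(TPM + 1) gave -0.78 for that difference of H2-T24 without a call (adjusted p = 0.121), and 0.36 for the response in WT, also without a call (adjusted p = 0.0707). The call of H2-T24 in KO was lost with limma on log2(TPM + 0.1) (-0.50, adjusted p = 0.0525).

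H2-Q6 was lower in KO M0 by 1.95 on the log2 scale at low levels, with 4.33 ± 0.614 CPM in WT and 1.13 ± 0.344 CPM in KO (edgeR adjusted p = 0.00211). H2-Q7, named after its values were seen, had 5.95 ± 0.745 and 2.70 ± 0.928 CPM (-1.16, edgeR adjusted p = 0.017). H2-Q6 and H2-Q7 are near copies of each other, and the posterior SD of their counts reached 7.82% and 4.92%, so that the division of reads between them is uncertain. With IL-4, 2 of the 9 genes rose and 4 fell in WT, against 24.9% and 25.1% of all genes. In KO 1 rose and 3 fell, against 26.8% and 26.0%. For the difference of the responses 1 was called higher and 1 lower, against 1.11% and 2.13%. H2-T23, named after its values were seen, rose by 0.31 in WT (edgeR adjusted p = 0.00136) and by 0.37 in KO (edgeR adjusted p = 0.00033). The antigen-presenting relatives Cd1d1 and Mr1, which present lipids and metabolites, fell with IL-4 in both genotypes, Cd1d1 by 0.83 in WT and by 0.65 in KO and Mr1 by 0.51 and by 0.50, where the Mr1 calls were lost in 3 of 6 fits without a library in WT and 2 of 6 in KO. With limma on log2(TPM + 0.1) Cd1d1 in WT was at -0.48 without a call (adjusted p = 0.0511). Neither was called between KO and WT.

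Genes of class II, whose molecules present peptides to CD4 T cells, were measured beside them, namely H2-Aa, H2-Ab1, H2-Eb1, H2-DMa and H2-DMb1 with the invariant chain Cd74 and the transactivator Ciita. Of these 7 genes, 2 were called higher in KO M0, against 5.50% of all genes, and 3 in KO M2, against 1.21%, with medians of 0.92 and 0.99. H2-Aa had 2.98, 3.55 and 7.71 CPM in WT M0 and 10.3, 9.34 and 9.38 CPM in KO M0, and both its genotype calls were lost in 5 of 6 fits without a library. The call of H2-DMa in M2 (0.61, edgeR adjusted p = 0.0385) was also lost in 5 of 6 such fits and with limma on log2(TPM + 1) (0.64, adjusted p = 0.0928). With IL-4, 4 of the 7 genes were called higher and none lower in each genotype, against 24.9% of all genes higher in WT and 26.8% in KO.

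Over the 12 libraries the members were not alike in their pattern. As a description of log2 CPM, in which all points share the 4 groups, the Pearson correlation was 0.81 for H2-K1 and B2m, 0.80 for H2-K1 and H2-D1, 0.83 for Tap2 and Psmb8, 0.81 for Tap1 and Nlrc5, and -0.94 for Nlrc5 and Psmb10. Among 9736 genes whose mean reached 5 CPM, the most similar to Psmb10 was Galk2 (1.00), to Nlrc5 Adipor2 (0.99), to Psmb8 Mrpl28 (0.96) and to Psmb9 Tuba1b (0.95). For Tapbp it was Psme2 (0.93), the proteasome activator subunit described above. For Tap2 it was Uchl1 (0.94), for H2-D1 Rhog (0.94), for B2m Atp6v1g1 (0.93) and for H2-K1 Tmbim6 (0.89), and the mean of the members was closest to Cyba (0.96).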

How the data were processed

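RNA was measured in 12 poly(A) libraries, grouped by the sample labels. The authors processed the reads with the Grape-nf pipeline on GRCm38. FastQC 0.11.2 and DESeq2 1.40.2 are named in the submitters' processing notes, and the annotation release behind the counts is not given in the sources used here. Per library, the table that the authors deposited holds expected counts (estimated reads per gene), TPM as a maximum-likelihood and a posterior-mean estimate, posterior SDs, and effective lengths. The credibility bounds of TPM, a signal that is never negative, were deposited by the authors as well and not used for tests. The authors' comparison tables hold mean counts, log2 fold changes, test scores and p-values deposited by the authors, and only their gene symbols were used. Symbols came from these tables for 21000 genes and from GENCODE M21, which also gave coordinates, for 16570.

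Expected counts were rounded, filtered with filterByExpr by group and scaled by TMM factors, and 12846 genes were fitted with edgeR 4.0.16 in R 4.3.3 (quasi-likelihood F test, 1 coefficient per group, all 12 libraries, biological coefficient of variation 8.08%). A standard error is the absolute fold change divided by the square root of F. Adjustment followed Benjamini and Hochberg, with calls at an adjusted p under 0.05. Alternatives were DESeq2 1.42.0, RLE factors, no filter, at least 1 CPM in at least 3 libraries, limma 3.58.1 on log2(TPM + 1) and log2(TPM + 0.1), only the 6 libraries of a comparison, a replicate block, and leaving out each library. Ratios were tested by exact two-sided permutation (scipy 1.17.1, Python 3.11.15), which cannot give a p under 0.1 with 3 against 3 libraries. The p printed for the IL-4 comparisons of ratios did not use the pairing by mouse, with which 3 pairs cannot give an exact p under 0.25. In simulated counts for 12846 genes with 200 changed by a log2 of 1, edgeR called 80.5% of these between the genotypes in M0 and 81% in M2, 86% with IL-4 in WT, 79.5% with IL-4 in KO and 72% in the difference of the responses. Between 5 and 9 unchanged genes were called as well. Smaller changes were not simulated, so these rates do not hold for the smaller differences of most members.

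Libraries of a mouse in M0 and M2 come from the same animal, and the deviations from their group means correlated by 0.331, 0.103 and 0.364 in WT and by 0.166, 0.16 and 0.209 in KO, so the mouse number pairs them. At most 5 genes were named per list, those called in most comparisons, with ties broken by the largest change, and Ifngr1, H2-Q7, H2-T23 and Rsad2 beyond this rule, as were the markers of other cell types. Similar genes were the ones with the highest Pearson correlation of log2 CPM, among genes whose mean reached 5 CPM. The members and lists were chosen with earlier results of these data known. Intervals are 95% intervals of the fit. Some genes are not reported here.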

Additional observations from a re-analysis of the deposited data

Results flagged for a closer look

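Between KO and WT the IL-4 response of Nlrc5 differed by -0.49 on the log2 scale, with a fall of 0.46 in WT and of 0.95 in KO, in a test of the interaction itself (SE 0.10, edgeR adjusted p = 0.0227). The 3 KO libraries lay above the 3 WT libraries in M0 and below them in M2. Without a single library the call disappeared in 5 of 12 fits (edgeR adjusted p between 0.0502 and 0.0659 in these, and from 0.00492 over all 12) and with limma on TPM.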

How the results depend on the processing

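Of 390 values of single members under the alternatives, 360 kept their direction and their side of the threshold. The 1 member called in M0 (Nlrc5) became 0 with limma at either pseudocount and with only the 6 libraries of M0, and the 0 members called in M2 became 1 (Psmb10) with DESeq2 and without a filter. The 1 member called for the difference became 0 with limma. Directions turned with limma, at both pseudocounts, in values that were never called: -0.04 for Psmb8 in M0, -0.01 for Tap1 in M2, -0.03 for H2-K1 with IL-4 in WT and -0.01 in KO, and -0.04 for Tap2 in the difference. Values that were 0.00 to start with were not counted as turned, and lay between -0.08 and 0.00 under the alternatives for H2-D1 with IL-4 in KO and between -0.02 and 0.00 for B2m in the difference. The cause was not tested.

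Equal library numbers did not pair WT with KO, with correlations of their deviations from -0.068 to 0.04, and 2 of 6 libraries in M0 and 0 of 6 in M2 correlated best with their own number. With that number as a replicate block 0 members were called in M0 (Nlrc5 0.25, adjusted p = 0.0543) and 0 in M2. Blocking on the mouse, 6 were called for IL-4 in WT, 3 in KO and 1 for the difference, and the block changed no other call of a member than those of Psmb8 and Nlrc5 given here and above.

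Leaving out each library in turn gave 0 to 1 called members in M0, 0 to 0 in M2, 2 to 6 for IL-4 in WT, 3 to 3 in KO and 0 to 1 for the difference. Values that took both signs, among them those that were 0.00 to start with, were those of H2-K1 (-0.06 to 0.03 in M0, -0.07 to 0.09 in M2, -0.01 to 0.08 with IL-4 in WT and -0.01 to 0.14 in KO, -0.05 to 0.10 for the difference), H2-D1 (-0.07 to 0.06 with IL-4 in KO, -0.01 to 0.12 for the difference), B2m (-0.07 to 0.01 in M0, -0.11 to 0.02 in M2, -0.07 to 0.06 for the difference), Psmb8 (-0.04 to 0.09 in M0), Psmb9 (-0.15 to 0.03 in M0, -0.02 to 0.16 in M2) and Tap2 (-0.03 to 0.07 for the difference), none of them called. The log2 ratio of Psmb10 to Psmb7 stayed within 0.05 to 0.13 in M0, 0.16 to 0.25 in M2, 0.91 to 1.01 for IL-4 in WT and 1.04 to 1.12 in KO, that of Psmb9 to Psmb6 within -0.27 to -0.14, -0.14 to 0.01, -0.71 to -0.58 and -0.59 to -0.43, and that of Psmb8 to Psmb5 within -0.20 to -0.14, -0.10 to -0.03, -0.22 to -0.15 and -0.11 to -0.05. Psmb9, whose counts went down to 387, had the largest SE of the members in each comparison (0.10 to 0.15).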
